A study of Macaca mulatta with 33 samples.

Results

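The genes of the major histocompatibility complex (MHC) class II system were measured in rhesus monkey corpora lutea on 33 Affymetrix Rhesus Genome arrays. Members are the probe sets with a single gene symbol that begins with MAMU-D, or is CD74 or CIITA. The rule found 18 probe sets of 9 genes among 52766 probe sets without controls. Of these, 14 passed the filter on low values, as did 28921 of all probe sets, and every gene kept at least 1 probe set. The 4 that did not pass were 2 of the 3 probe sets of MAMU-DOA and 2 of the 3 of MAMU-DOB, each above the median of all values in at most 2 arrays.

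The corpus luteum forms after ovulation and secretes progesterone, and chorionic gonadotropin sustains it once pregnancy begins. Untreated tissue was taken on luteal day 10 (8 arrays). All other animals received human chorionic gonadotropin (hCG) in rising doses, for 1 day up to luteal day 10 or for 6 days up to luteal day 15. They received hCG alone, hCG with trilostane, or hCG with both trilostane and the synthetic progestin R5020. Trilostane blocks progesterone synthesis at the step of 3-beta-hydroxysteroid dehydrogenase. Each treated group has 4 arrays, except day 15 hCG alone with 5. Groups with trilostane are called trilostane day 10 and day 15 below, and those with trilostane and R5020 are called R5020 day 10 and day 15, and both kinds contain hCG. The RNA came from whole luteal tissue of adult females, so fewer cells of a type and less RNA per cell cannot be told apart. Of the luteal genes used as a tissue check, STAR, HSD3B2, CYP19A1, INHA and FDX1 all had a kept probe set, with mean log2 intensities of 12.84 to 14.65, while CYP11A1, LHCGR and SCARB1 had no probe set with a single symbol.

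Array names place the arrays in 3 sets. Set 1 holds untreated replicates 1 to 4, hCG day 10, trilostane day 10 and 4 of the hCG day 15 arrays. Set 2 holds untreated replicates 6 to 9, R5020 day 10, and replicates 1 to 3 of trilostane day 15 and of R5020 day 15. Set 3 holds 1 array of each day 15 group, so hCG day 15 and trilostane day 15 meet in set 3 alone. Of the arrays in sets 1 and 3, untreated replicates 1 to 4, hCG day 10 and hCG day 15 replicates 1 to 4 are marked as a reanalysis in the labels. Log2 values of an array pair differed with an SD of 0.476 (median of 528 pairs). Replicate 4 of trilostane day 15 and replicate 4 of R5020 day 15, both of set 3, differed with an SD of 0.192. Replicates 3 and 5 of hCG day 15, which carry 1 sample number, differed with an SD of 0.201. These last are averaged in means and SD (n = 4) but count as 2 samples in the limma fits. All comparisons share the spread of 1 fit, so every p-value of that fit rests on 1 more array than distinct samples. With either left out, no class II probe set passed in a comparison with hCG day 15. The main day 15 results are given with and without both replicate 4 arrays. Array set was a term of every fit.

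MHC class II molecules present peptides from the endosomal pathway to CD4 T cells. The classical molecules DR, DP and DQ are pairs of an alpha and a beta chain. CD74, the invariant chain, escorts them to the endosome and blocks the groove, DM then exchanges the remnant of CD74 for peptide, and DO restrains DM. CIITA is the coactivator that drives these genes together, on promoters bound by RFX, CREB and NFY proteins. In most tissues the high expressers are macrophages, dendritic cells and B cells, and immune cells are known residents of the corpus luteum.

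MAMU-DRA encodes the alpha chain of DR and is measured by 3 probe sets. Levels are centred log2 intensities, and those of the probe set MmugDNA.1046.1.S1_s_at are given first. In untreated tissue the lowest, median and highest levels were 11.19, 11.67 and 12.84. The hCG day 10 arrays read 11.92, 11.88, 11.42 and 11.68, and those of trilostane day 10 read 11.33, 12.06, 11.74 and 12.48. All of these day 10 levels lay within the untreated range. R5020 day 10 gave 12.05, 11.92, 11.78 and 11.73. Levels in hCG day 15 were 11.36, 11.68, 11.99, 12.12 and 12.07. Neither group left the untreated range. Trilostane day 15 read 13.16, 12.59, 13.34 and 11.98, and R5020 day 15 read 12.04, 11.81, 11.83 and 12.01. Replicates 1 and 3 of trilostane day 15 were above every array of the other groups, replicate 2 was above all of them but untreated replicate 2, and replicate 4 was in the range of the other groups.

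MAMU-DPA, the alpha chain of DP, followed the same order at day 15. Untreated levels were 9.48, 9.95 and 10.80 (lowest, median, highest). Trilostane day 15 read 12.01, 11.11, 12.28 and 10.27, and R5020 day 15 read 10.38, 10.15, 9.71 and 10.61. The first 3 trilostane arrays stood above all untreated and R5020 arrays, and the fourth did not. The hCG day 15 arrays were widely spread, at 10.10, 8.98, 9.99, 11.48 and 10.11, and replicate 4 of that group overlapped the trilostane arrays. At day 10 the levels ran from 10.05 to 10.83 with hCG, from 9.78 to 11.15 with trilostane and from 9.56 to 10.35 with R5020.

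CD74 had untreated levels of 9.94, 10.46 and 11.28. Trilostane day 15 gave 11.98, 11.42, 11.95 and 10.91, and R5020 day 15 gave 10.80, 10.54, 10.60 and 11.04. Replicates 1 to 3 of trilostane day 15 were the top 3 of all 33 arrays for CD74, and replicate 4 lay below the R5020 array it resembles. The hCG day 15 arrays read 10.33, 9.92, 10.82, 10.74 and 11.06. The day 10 groups lay between 10.18 and 11.02, all inside the untreated range.

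MAMU-DQA1, the alpha chain of DQ, read 10.66, 9.59, 11.24 and 9.49 in trilostane day 15 and 9.76, 8.18, 8.44 and 9.65 in R5020 day 15. Untreated levels were 8.11, 8.89 and 10.62, so untreated replicate 2 alone overlapped the trilostane arrays. R5020 replicates 1 and 4 also lay above trilostane replicates 2 and 4. MAMU-DMA, the alpha chain of DM, read 10.63, 10.04, 11.32 and 9.26 in trilostane day 15 (probe set MmugDNA.18015.1.S1_at) and 9.69, 9.34, 9.11 and 9.31 in R5020 day 15. Its untreated levels were 8.69, 9.08 and 11.06. Again the highest untreated level was that of replicate 2, which alone overlapped the first 3 trilostane arrays, and the fourth lay below it. MAMU-DQB1, the beta chain of DQ, read 8.71, 8.28, 9.67 and 7.57 in trilostane day 15 (the probe set ending in x_at), against 6.80, 7.63 and 8.15 in untreated tissue and 7.31, 8.44, 7.55 and 7.77 in R5020 day 15. R5020 day 15 replicate 2 was above trilostane replicate 2 for this chain, unlike for MAMU-DRA.

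**Figure D1:**
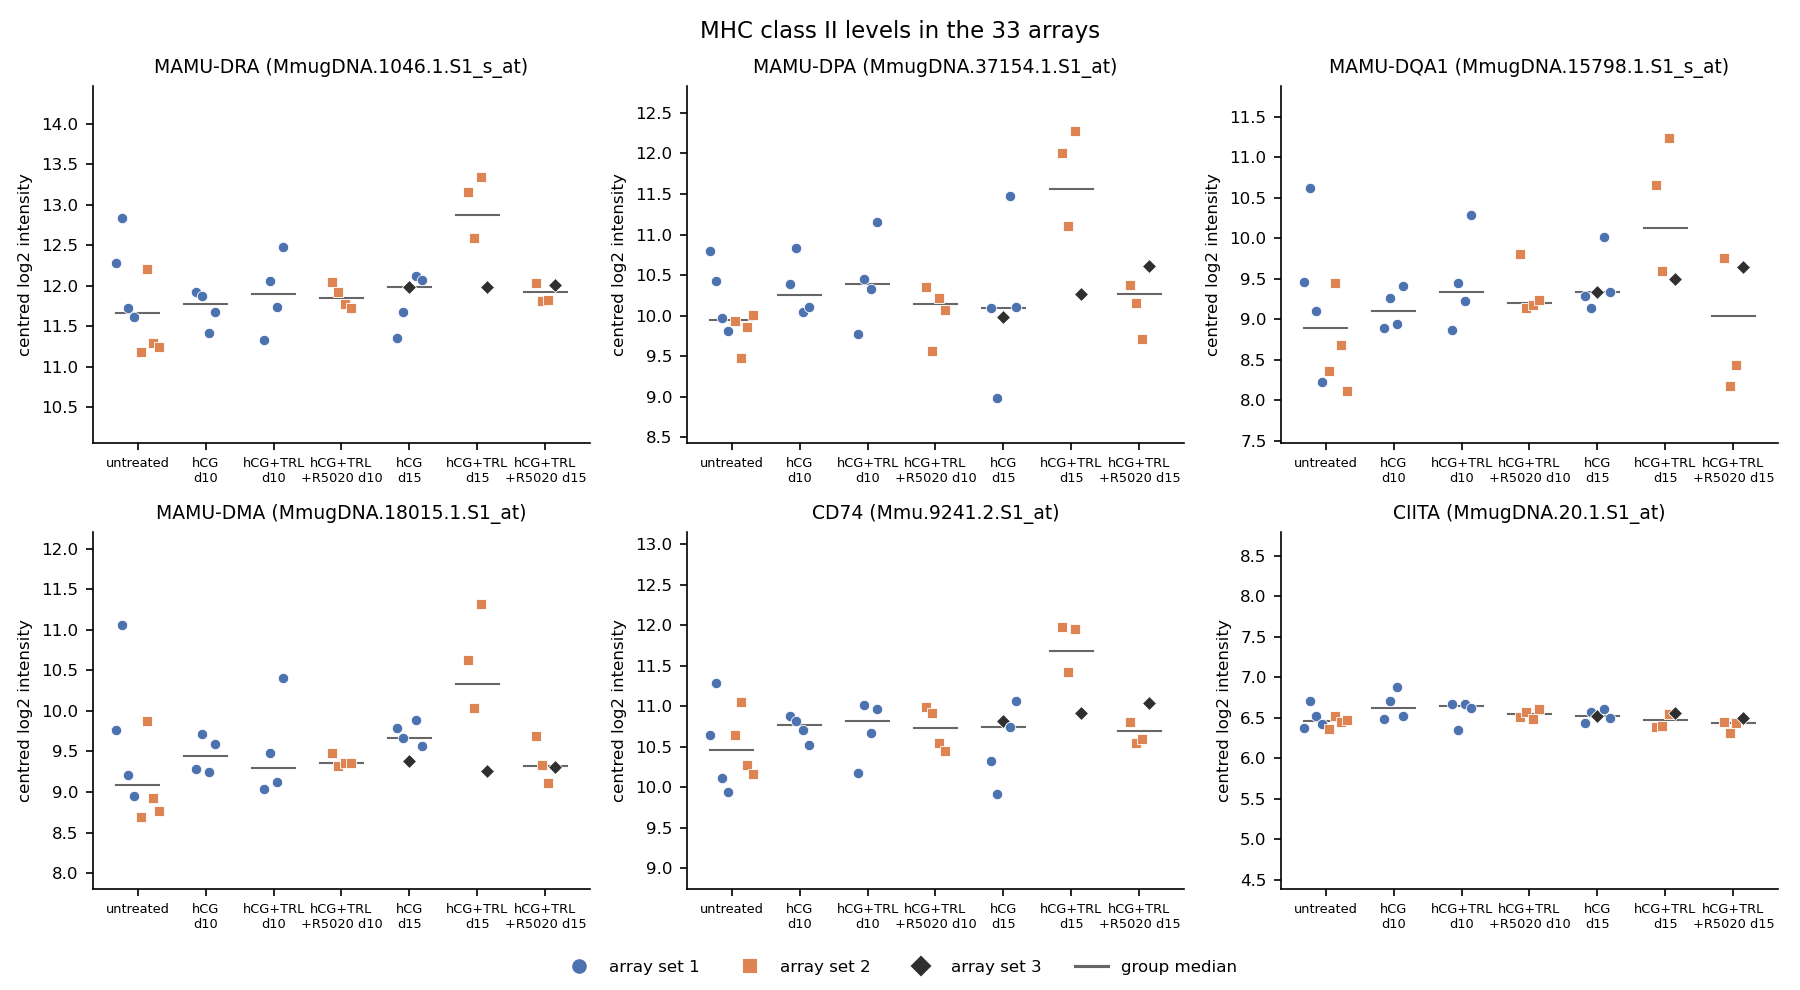
Centred log2 intensity (y axis, the same span in each panel) of 6 class II probe sets by group (x axis; TRL is trilostane, d10 and d15 are luteal days), 1 point per array, with shape and colour for array set and a line for the group median over all its arrays. In 5 panels the set 3 array of trilostane day 15 is the lowest of its group (MAMU-DRA 13.16, 12.59, 13.34 and 11.98). In the MAMU-DQA1 panel replicate 2 of set 2 lies close to it, within the range of other groups. CIITA stays between 6.31 and 6.88.

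CIITA, measured by a probe set whose detection of the transcript was not tested, had a mean level of 6.52, near the filter cut of 6.18. It varied little over the arrays (SD 0.12). Its 33 levels ran from 6.31 to 6.88, with 6.39, 6.40, 6.55 and 6.55 in trilostane day 15 and 6.36, 6.46 and 6.70 as the lowest, median and highest in untreated tissue. MAMU-DOA, the alpha chain of DO, read 7.45, 7.21, 7.59 and 7.14 in trilostane day 15 (MmugDNA.36614.1.S1_s_at) and 7.01, 7.18 and 7.49 in untreated tissue. For both genes the trilostane and untreated arrays overlapped. The kept probe set of MAMU-DOB, the beta chain of DO, was above the median of all values in only 10 arrays. It read 7.55, 5.02, 7.10 and 5.18 in trilostane day 15, and its spread within that group (SD 1.30, n = 4) was the largest of the 7 groups.

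Trilostane day 15 had the highest group mean, adjusted for array set, of MAMU-DRA, MAMU-DPA and CD74. For MAMU-DRA the means (± SD, in log2 units) were 13.16 ± 0.57 in trilostane day 15 (n = 4), 12.32 ± 0.15 in R5020 day 15 (n = 4), 12.24 ± 0.14 in R5020 day 10 (n = 4) and 11.98 ± 0.51 in untreated tissue (n = 8). They were 11.90 ± 0.49 in trilostane day 10, 11.86 ± 0.41 in hCG day 15 and 11.72 ± 0.23 in hCG day 10 (n = 4 each). Below trilostane day 15, the means of neighbouring groups differed by less than the larger of their SD. For MAMU-DPA the means were 11.76 ± 0.80 in trilostane day 15, 10.56 ± 0.50 in R5020 day 15 and 10.17 ± 0.34 in untreated tissue, with the remaining groups between 10.22 and 10.43. For CD74 they were 11.44 ± 0.47, 10.63 ± 0.27 and 10.44 ± 0.48, with the remaining groups between 10.48 and 10.73.

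Trilostane day 15 against untreated tissue was the comparison in which class II probe sets passed the test. These groups differ in luteal day, in 6 days of hCG and in trilostane together. Of 14 class II probe sets, 9 rose and none fell (limma, Benjamini-Hochberg adjusted p under 0.05 over all probe sets), where 8.8% of all probe sets passed in either direction and 4.15% rose. All 14 lay above 0 with a median log2 change of 1.19, against -0.01 over all probe sets. The 9 belong to MAMU-DRA, MAMU-DPA, MAMU-DQA1, MAMU-DMA and CD74.

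MAMU-DRA rose by 1.18 ± 0.28 (log2 change ± SE, limma adjusted p = 0.008), a 2.27-fold difference, and its other probe sets rose by 1.23 ± 0.28 (adjusted p = 0.0061) and 1.37 ± 0.34 (0.012). MAMU-DPA rose by 1.59 ± 0.38 (adjusted p = 0.0087), a 3.01-fold difference. MAMU-DQA1 rose by 1.50 ± 0.42 (adjusted p = 0.025). The 3 probe sets of MAMU-DMA rose by 1.20 to 1.38 (adjusted p = 0.009 to 0.025). CD74 rose by 1.00 ± 0.27 (adjusted p = 0.017), a doubling in which the 95% interval of the log2 change runs from 0.45 to 1.55. So the alpha chains of DR, DP and DQ, the invariant chain and the alpha chain of DM rose together.

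The remaining 5 probe sets did not pass. MAMU-DQB1 gave 0.82 ± 0.33 (limma adjusted p = 0.13) and 1.05 ± 0.37 (0.074). MAMU-DOB gave 0.53 ± 0.44 (0.52), with a 95% interval from -0.37 to 1.43. MAMU-DOA gave 0.19 ± 0.11 (0.31), and CIITA gave 0.00 ± 0.09 (0.98), with an interval from -0.17 to 0.18. A CIITA change the size of that of CD74 lies outside that interval, though its level is the signal of 1 probe set near the array's median.

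The count rested on the set 2 arrays. Without both near-identical replicate 4 arrays, 11 of 14 probe sets rose (limma, same threshold), against 3.23% of all probe sets, and the median was 1.55. MAMU-DRA then rose by 1.55 (adjusted p = 0.0014), MAMU-DPA by 1.98 (0.0029), CD74 by 1.25 (0.0075), and both MAMU-DQB1 probe sets passed at 1.21 (0.032) and 1.47 (0.02). Leaving out 1 array instead, the count was 4 without trilostane day 15 replicate 1 and 4 without replicate 3. Over all 28921 probe sets, 1710 and 2052 passed in those fits in either direction, and 2546 in the main fit. Without replicate 1 MAMU-DRA was at 1.05 (adjusted p = 0.041) and MAMU-DPA at 1.40 (0.045), while CD74 missed the threshold at 0.86 (0.08). Without replicate 3 MAMU-DRA was at 0.98 (0.045) and MAMU-DPA at 1.30, while CD74 missed at 0.87 (0.069). MAMU-DQA1 missed it in both cases (1.34 and 1.12, adjusted p = 0.094 and 0.12), as did 2 of the 3 MAMU-DMA probe sets (1.11 and 0.90, 0.058 and 0.09, and 1.17 and 0.92, 0.078 and 0.13) and the third MAMU-DRA probe set (MmugDNA.1046.1.S1_at, 1.21 and 1.17, 0.055 and 0.056).

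Some calls also ended without 1 untreated array. MAMU-DQA1 missed the threshold without untreated replicate 6 (1.40, limma adjusted p = 0.062) or 9 (1.34, 0.066). MAMU-DMA by MmugDNA.18015.1.S1_at missed it without replicate 6 (1.12, 0.071), 8 (1.18, 0.052) or 9 (1.14, 0.061), and another MAMU-DMA probe set without replicate 6 (1.06, 0.052). Those same MAMU-DMA probe sets missed it without the array set term (0.91, 0.085, and 0.89, 0.055). With only the groups compared in the fit, all 3 MAMU-DMA probe sets (1.56 to 1.68, adjusted p = 0.071 to 0.086) and MAMU-DQA1 (1.85, 0.077) missed it, and both MAMU-DQB1 probe sets passed (1.21, 0.035, and 1.47, 0.038). Within set 2 alone, 11 probe sets had every trilostane day 15 array (3) above every untreated array (4), a separation that 7.7% of all probe sets showed. The 3 that did overlap there were MAMU-DOA, MAMU-DOB and CIITA. Over all arrays (4 against 8) no class II probe set separated the groups on levels (2.45% of all probe sets did), and MAMU-DPA alone did on levels adjusted for array set (3.97%).

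**Figure D2:**
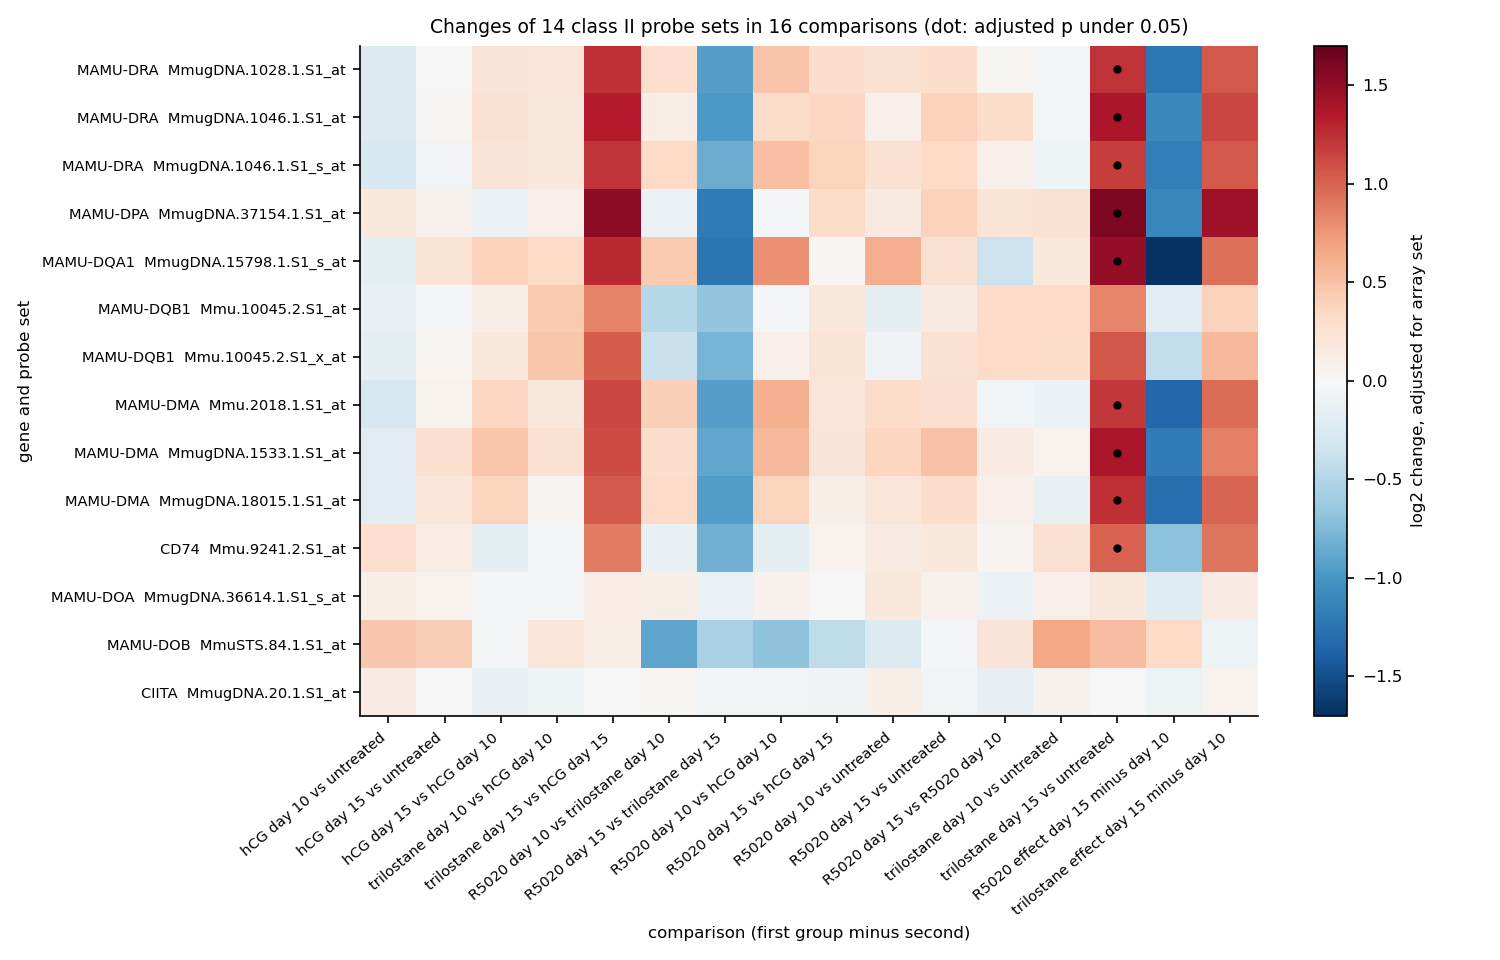
Log2 change (colour, first group minus second, adjusted for array set) of 14 class II probe sets (rows) in 16 comparisons (columns), with a dot where the limma adjusted p is under 0.05. The 9 dots all lie in trilostane day 15 against untreated, and the rows of MAMU-DOA and CIITA are pale throughout.

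R5020 day 15 against trilostane day 15 asks what the progestin changed when progesterone synthesis was blocked. None of the 14 class II probe sets passed (limma), nor did any of all probe sets (0%). All 14 lay below 0, with a median log2 difference of -0.87 against trilostane alone, and 10 had an unadjusted p under 0.05, as had 3.51% of all probe sets. MAMU-DRA was at -0.84 ± 0.29 (adjusted p = 1), MAMU-DPA at -1.20 ± 0.39 (1) and CD74 at -0.82 ± 0.27 (1), with the 95% intervals running from -1.44 to -0.25, from -2.02 to -0.39 and from -1.39 to -0.25. These intervals are not adjusted for the number of probe sets tested.

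Both replicate 4 arrays of this comparison are the near-identical pair, whose class II levels differed by a median of 0.09. Without them the median was -1.19, with MAMU-DRA at -1.14 ± 0.30 (limma adjusted p = 0.28), MAMU-DPA at -1.72 ± 0.42 (0.21) and CD74 at -1.14 ± 0.30 (0.28), and still 0% of all probe sets passed. In set 2 alone, 8 of the 14 had every R5020 array (3) below every trilostane array (3), which 4.58% of all probe sets showed. The 8 are all probe sets of MAMU-DRA, MAMU-DMA, MAMU-DPA and CD74. In the other 6 probe sets, those of MAMU-DQA1, MAMU-DQB1, MAMU-DOA, MAMU-DOB and CIITA, the arrays overlapped. Over all arrays (4 against 4), 1 of the 14, the MAMU-DRA probe set MmugDNA.1028.1.S1_at, had every R5020 array below every trilostane array, on levels (0.692% of all probe sets) and adjusted for array set (1.14%).

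R5020 day 15 against untreated tissue had no class II call (limma), where 4.17% of all probe sets passed. Class II changes had a median of 0.27 and a range of -0.05 to 0.50. In set 2 no class II probe set had all R5020 arrays above all untreated arrays, against 5.7% of all probe sets. Trilostane day 15 and R5020 day 15 share the untreated arrays as controls, so these values are set side by side and not tested against each other beyond the direct comparison above.

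**Figure D3:**
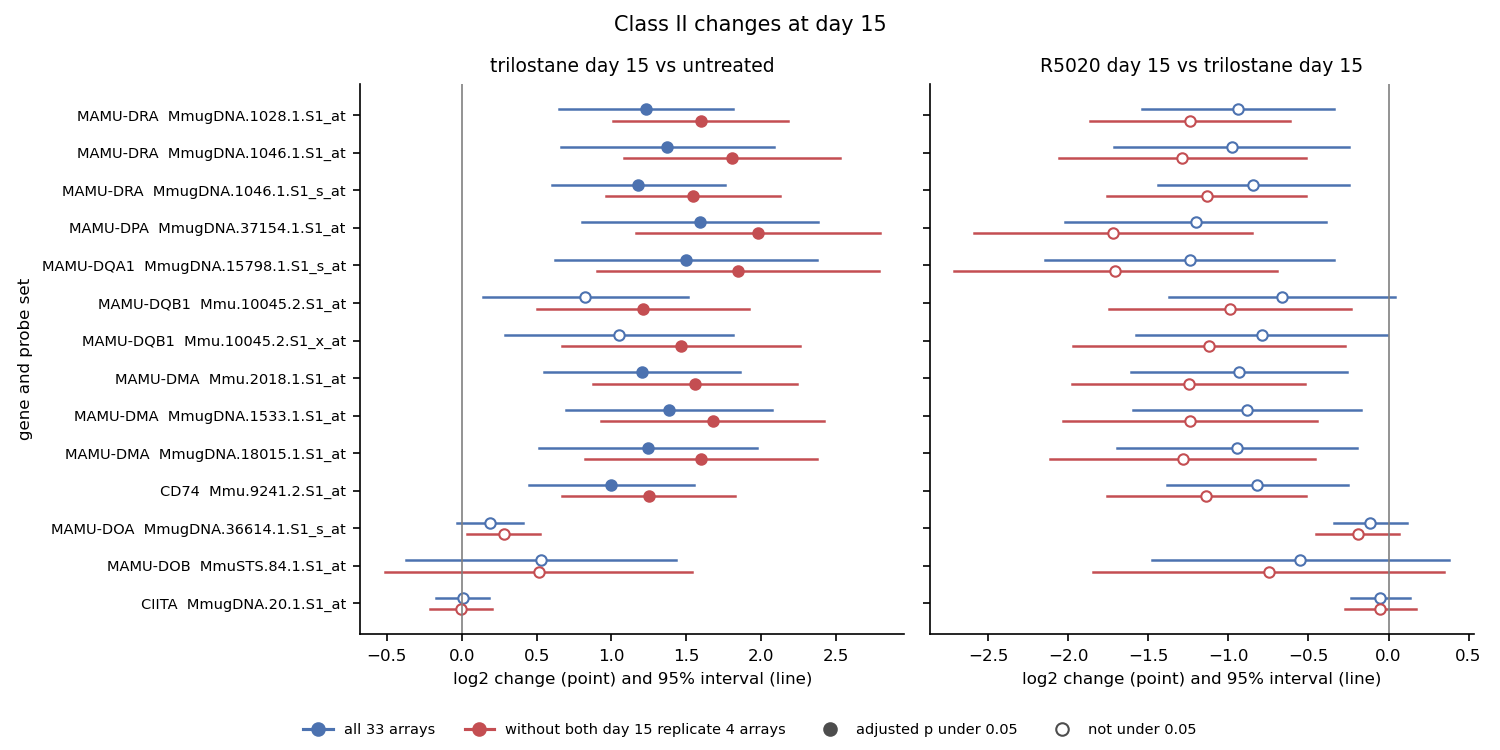
Log2 change (point) and unadjusted 95% interval (line) of 14 class II probe sets for trilostane day 15 against untreated (left) and R5020 day 15 against trilostane day 15 (right), with all arrays in blue and without both replicate 4 arrays in red, filled where the limma adjusted p is under 0.05. The left panel has 9 filled blue and 11 filled red points; the right panel has none, with every point below 0.

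Trilostane day 15 against hCG day 15 compares groups of the same luteal day and days of hCG, with and without trilostane. Outside set 3 these groups also differ in array set, and between them only hCG day 15 arrays carry the reanalysis mark. No class II probe set passed (limma), and 0.0242% of all probe sets did. Of the 14, 13 lay above 0, with a median of 1.08 (1.68 without both replicate 4 arrays), and MAMU-DRA was at 1.22 ± 0.34 (adjusted p = 0.36), MAMU-DPA at 1.52 ± 0.46 (0.43) and CD74 at 0.88 ± 0.32 (0.54). Without the replicate 4 arrays MAMU-DRA was at 1.85 ± 0.38 (adjusted p = 0.11), and 0% of all probe sets rose. These estimates link the groups through untreated and other arrays in other sets. In set 3, the only set with both groups, MAMU-DRA read 11.98 in the trilostane array and 11.99 in the hCG array. A fit of these groups alone, which rests on that pair of arrays, had a class II median of 0.01.

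With hCG alone the class II genes gave no call. In hCG day 10 against untreated tissue (4.73% of all probe sets passed, limma) the class II median was -0.16, with MAMU-DRA at -0.26 ± 0.28, MAMU-DPA at 0.17 ± 0.38 and CD74 at 0.29 ± 0.27. In hCG day 15 against untreated tissue (5.67%) the median was 0.07 (-0.05 without both replicate 4 arrays), with MAMU-DRA at -0.04 ± 0.26, MAMU-DPA at 0.07 ± 0.35 and CD74 at 0.12 ± 0.24. The 95% interval for MAMU-DRA there ran from -0.57 to 0.49. In hCG day 15 against hCG day 10 (6.71%) the median was 0.20.

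At day 10 neither added agent gave a class II call (limma). On levels adjusted for array set, 6 of 14 had every R5020 day 10 array above every hCG day 10 array (2.02% of all probe sets). On unadjusted levels 0 did (3.06%), and these groups lie in different array sets. The medians were 0.20 for trilostane against hCG (0.00346% of all probe sets passed), 0.10 for R5020 against trilostane (0%), 0.20 for R5020 against hCG (0%), 0.08 for trilostane against untreated (2.83%) and 0.17 for R5020 against untreated (1.24%). For R5020 day 15 against hCG day 15 (0%) and R5020 day 15 against R5020 day 10 (2.47%) they were 0.19 and 0.09. The effect of trilostane at day 15 minus its effect at day 10 had a class II median of 0.92 (1.35 without both replicate 4 arrays, and -0.18 when only the groups compared were fitted, which turns the direction), with 5 probe sets at an unadjusted p under 0.05 and none past the adjusted threshold (0% of all). The same difference for R5020 against trilostane had a median of -1.10 (-1.70 without both replicate 4 arrays, and -1.68 without trilostane day 15 replicate 4 alone), with 6 at an unadjusted p under 0.05 and none past the threshold (0%). MAMU-DRA differed by 1.04 ± 0.45 in the first and -1.18 ± 0.48 in the second (adjusted p = 1 for both).

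Transcripts of the factors that bind the class II promoter, and of the coactivators EP300 and CREBBP, gave no call at day 15. Of 8 measured genes of the RFX, CREB and NFY factors and these coactivators, none passed in trilostane day 15 against untreated tissue (limma). Over all probe sets 8.8% passed there in either direction, a share at which lists this short can give no call. The changes of the 8 genes ran from -0.13 to 0.15. RFX5, a subunit of the RFX complex whose loss abolishes class II expression, was at -0.10 ± 0.07 (adjusted p = 0.46). Of 4 measured genes upstream of CIITA, none passed, with IRF1, an interferon-induced activator, at 0.02 ± 0.29 (0.98) and IRF8, a factor of myeloid cells, at -0.84 ± 0.43 (0.25). The probe set of IFNG, the cytokine interferon gamma, was under the filter.

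RFX5 passed the test against untreated tissue at day 10. Its level ran from 9.20 to 9.39 over the 8 untreated arrays. It was 8.80, 8.88, 8.78 and 8.90 with hCG, 8.80, 8.70, 8.95 and 8.95 with trilostane, and 8.93, 9.03, 9.05 and 9.08 with R5020. None of these 12 arrays overlapped the untreated ones. Of all probe sets, 1.47% lay wholly below untreated tissue with hCG, 3.82% with trilostane and 0.861% with R5020 at day 10. The 5 arrays of hCG day 15, at 9.04, 8.96, 8.97, 9.04 and 9.05, did not overlap the untreated arrays either (1.62% of all probe sets). The change there was -0.21 ± 0.07 and missed the threshold (limma adjusted p = 0.065). RFX5 at day 10 was not tested against day 15. RFX5 fell by 0.39 ± 0.07 in hCG day 10 (limma adjusted p = 0.0017) and by 0.38 ± 0.07 in trilostane day 10 (0.003), and leaving out any of the arrays of either comparison kept the adjusted p at 0.017 or lower. It fell by 0.29 ± 0.07 in R5020 day 10 (0.044), a call lost with 10 of the 12 arrays left out in turn (all but untreated replicates 2 and 7, adjusted p up to 0.17), and within set 2 (0.22). The 3 comparisons share the untreated arrays, and the class II medians beside them were -0.16, 0.08 and 0.17.

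Genes that load and turn over class II molecules gave 3 calls of 11 in trilostane day 15 against untreated tissue, all higher (limma). The list median was 0.30, and 4.15% of all probe sets rose. MARCHF1, a ubiquitin ligase that removes class II from the surface, rose by 1.11 ± 0.29 (adjusted p = 0.016). CTSS, the protease that trims CD74, rose by 1.00 ± 0.31 (0.041), with levels of 10.33, 9.88, 10.67 and 8.70 in trilostane day 15. CTSL, another lysosomal protease, rose by 0.51 ± 0.15 (0.025), a call that ended without both replicate 4 arrays (0.1). IFI30, a lysosomal thiol reductase, was at 0.98 ± 0.38 (0.11). The count was 0 without trilostane day 15 replicate 1, 1 without replicate 3, and 1 without the array set term. CTSS also lost its call without trilostane day 15 replicate 2 or untreated replicate 6, 8 or 9, and CTSL without untreated replicate 6, trilostane replicate 2 or trilostane replicate 4 (adjusted p up to 0.16 and 0.088).

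MARCHF8, a relative of MARCHF1, rose by 0.35 ± 0.11 in hCG day 15 against untreated tissue (limma adjusted p = 0.048), a call lost with any of 7 of the 13 arrays left out (untreated replicates 1, 3, 4 and 8 and hCG day 15 replicates 2, 4 and 5, adjusted p up to 0.16). LGMN, a lysosomal protease, rose by 0.95 ± 0.28 in R5020 day 15 against untreated tissue (0.05 after rounding), lost with any of 8 of the 12 arrays left out, namely untreated replicates 3, 4, 6 and 9 and each R5020 array (up to 0.15). Of 7 costimulation and adhesion genes none passed in trilostane day 15 against untreated tissue, where 8.8% of all probe sets passed in either direction. CD86, a ligand of CD28, was at -0.49 ± 0.32 (0.39) and CD40 at 0.01 ± 0.13 (0.98).

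MHC class I genes, which present peptides from the cytosol, gave no call among 17 in trilostane day 15 against untreated tissue (limma). Over all probe sets 8.8% passed in either direction. The class I median was 0.01, or 0.21 without both replicate 4 arrays. B2M, the shared light chain, was at 0.07 ± 0.06 (adjusted p = 0.52), and MAMU-A at -0.04 ± 0.22 (0.94). The gene order of the RefSeq annotation (assembly T2T-MMU8v2.0, used for neighbours) runs from MAMU-DPA over MAMU-DOA, BRD2, MAMU-DMA, TAP1, PSMB8, TAP2, MAMU-DOB, MAMU-DQB1 and MAMU-DQA1 to MAMU-DRA, with further genes between. Within this block BRD2 was at -0.11 ± 0.11 (0.62), TAP1 at -0.58 ± 0.37 (0.39), PSMB8 at -0.01 ± 0.35 (0.99) and TAP2 at 0.04 ± 0.33 (0.96). In that order class II genes with a call lay on both sides of these genes, and a part of position was not tested. LOC705588, between MAMU-DQA1 and MAMU-DRA and named after its value was seen, rose by 1.01 ± 0.32 (0.047), a call lost with 9 of the 12 arrays left out (all but untreated replicates 2 and 7 and trilostane replicate 4, up to 0.17).

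**Figure D4:**
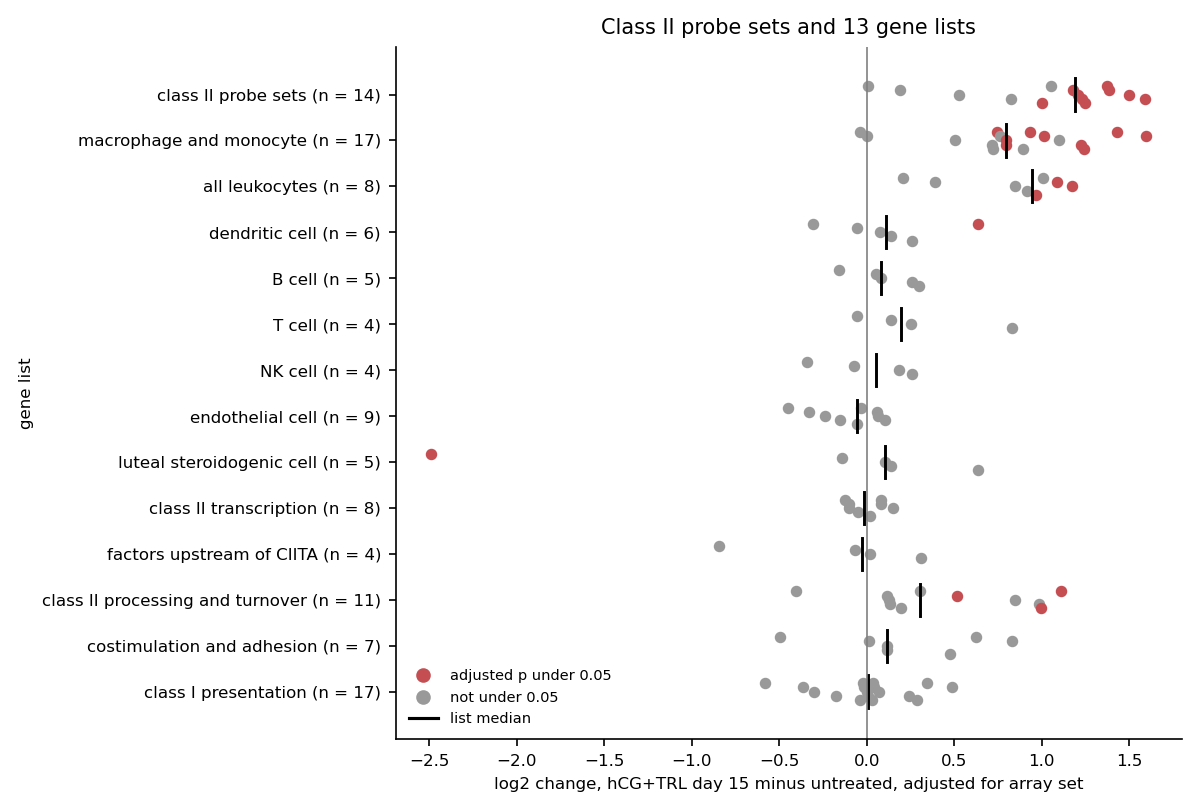
Log2 change in trilostane day 15 against untreated tissue (x axis, adjusted for array set) of the 14 class II probe sets and the genes of 13 lists (rows, 1 probe set per gene), red where the limma adjusted p is under 0.05, with the list median as a line. Class II (median 1.19), leukocyte (0.94) and macrophage (0.79) rows lie right of 0, and class I (0.01) and endothelial (-0.05) rows centre on it.

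Macrophage and general leukocyte markers moved with the class II genes, and their part in the class II result was not tested. The dendritic, B, T and natural killer cell lists had medians of 0.11, 0.08, 0.19 and 0.06 in trilostane day 15 against untreated tissue. Of 17 macrophage and monocyte genes, 9 rose in trilostane day 15 against untreated tissue and none fell past the threshold (limma). Over all probe sets 4.15% rose. Of the 17 genes, 15 lay above 0, and the median was 0.79. SIGLEC1, a sialic acid receptor of macrophages, rose by 1.01 ± 0.21 (adjusted p = 0.0021), LYZ, lysozyme, by 1.60 ± 0.35 (0.0045) and AIF1 by 1.43 ± 0.42 (0.031). CD68, a lysosomal protein of macrophages, rose by 0.79 ± 0.24 (0.035). Of 8 genes of all leukocytes, 3 rose, CD48 by 1.17 ± 0.25 (0.0031), PTPRC, the CD45 phosphatase, by 1.09 ± 0.27 (0.011) and CD53 by 0.97 ± 0.27 (0.022), with a list median of 0.94. Without both replicate 4 arrays 12 of 17 and 6 of 8 rose, with medians of 1.22 and 1.30, where 3.23% of all probe sets rose.

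These counts fell with other settings. They were 2 of 17 and 1 of 8 without trilostane day 15 replicate 1, 3 and 1 without replicate 3, 2 and 1 without the array set term, and 2 and 2 with array set as a random block (limma). SIGLEC1, LYZ and CD48 kept their calls with each array of the comparison left out in turn, and CD48 lost its call without the array set term (0.78, adjusted p = 0.095). PTPRC lost its call without trilostane replicate 1 or 3 (adjusted p up to 0.067), CD53 also without untreated replicate 6 or 9 (0.1), CD68 also without untreated replicate 6, 8 or 9 (0.13), and AIF1 without untreated replicate 6 or 9 or trilostane replicate 1, 2 or 3 (0.13).

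Of the other immune lists, CD83 was the single gene of 6 dendritic cell genes to rise, by 0.64 ± 0.19 (limma adjusted p = 0.035). That call ended without untreated replicate 6, 7 or 8 or trilostane replicate 1, 2 or 3 (adjusted p up to 0.15). FLT3, CLEC9A, XCR1 and CD1C, which define dendritic cells, were under the filter. None of 5 B cell genes, 4 T cell genes and 4 natural killer cell genes passed, where 8.8% of all probe sets did in either direction. CD79A was at 0.05 ± 0.09 (0.80) and CD4 at 0.83 ± 0.28 (0.062). CD4, which macrophages also carry, passed without both replicate 4 arrays (0.021). MS4A1, which defines B cells, was under the filter, and CD3E and CD163 had no probe set with a single symbol. None of 9 endothelial genes passed (median -0.05), with PECAM1 at 0.10 ± 0.12 (0.69). Among 5 luteal genes HSD3B2, the enzyme trilostane inhibits, fell by 2.49 ± 0.28 (3.4e-06), and STAR, which carries cholesterol into the mitochondrion, was at 0.14 ± 0.05 (0.11).

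In other comparisons with untreated tissue few genes of the lists passed (limma). STAR rose by 0.30 ± 0.05 in hCG day 15 (adjusted p = 0.00025) and by 0.21 ± 0.05 in R5020 day 15 (0.018). The second call ended without untreated replicate 8 or R5020 replicate 3 (up to 0.081) and within set 2 (0.11). HSD3B2 fell by 2.03 ± 0.28 in R5020 day 15 (1e-04) and by 0.88 ± 0.26 in hCG day 15 (0.043), the latter lost with 9 of 13 arrays left out (up to 0.14), the exceptions being untreated replicates 7 and 9 and hCG day 15 replicates 3 and 5. ZBTB46, a factor of classical dendritic cells, fell by 0.38 ± 0.11 in hCG day 10 (0.035) and by 0.40 ± 0.11 in trilostane day 10 (0.035). Both calls ended without untreated replicate 1, 2 or 3, the first also without hCG day 10 replicate 1 or 3, the second also without any of its trilostane arrays (up to 0.12 and 0.11), and both without the day 15 replicate 4 arrays (0.059 and 0.062).

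The mean level of the 17 macrophage genes ran from 9.95 to 10.32 in the set 2 arrays of trilostane day 15 and was 8.33 in replicate 4. It ran from 9.39 to 9.64 in the set 2 arrays of R5020 day 15 and from 8.42 to 9.52 in the untreated arrays of set 2. For the 8 leukocyte genes the ranges were 9.17 to 10.09 and 8.10 in trilostane day 15, 8.76 to 9.23 in R5020 day 15 and 8.30 to 9.06 in untreated tissue. Replicate 4 of trilostane day 15 was the lowest of its group for both lists, as for MAMU-DRA, MAMU-DPA and CD74.

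CD68 read 10.07, 9.70, 10.42 and 8.77 in R5020 day 15 and 10.38, 9.82, 10.43 and 8.48 in trilostane day 15, so the groups overlapped. PTPRC read 9.05, 8.63, 9.03 and 8.76 in R5020 day 15 and 10.26, 9.54, 10.54 and 8.75 in trilostane day 15. In set 2 PTPRC separated the groups, as MAMU-DRA did, and CD68 did not. The list means went the other way there. The mean of the 17 macrophage genes separated trilostane from R5020 arrays (9.95 to 10.32 against 9.39 to 9.64). That of the 8 leukocyte genes overlapped (9.17 to 10.09 against 8.76 to 9.23). In R5020 day 15 against trilostane day 15 the medians were -0.43 for the macrophage list and -0.45 for the leukocyte list, beside -0.87 for class II, with no gene of either list past the threshold (limma). The medians were -0.30 for class I, 0.05 for endothelial genes and 0.01 over all probe sets.

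Across the 33 arrays, after group and array set were removed, class II probe sets varied together. Pearson's r with MAMU-DRA (MmugDNA.1046.1.S1_s_at) was 0.99 and 0.96 for its other probe sets, 0.84 to 0.90 for MAMU-DMA, 0.86 for CD74, 0.83 for MAMU-DQA1, 0.67 and 0.72 for MAMU-DQB1, 0.59 for MAMU-DPA and 0.52 for MAMU-DOA. It was 0.20 for MAMU-DOB and 0.11 for CIITA. All of these describe arrays that share array sets and 2 near-identical pairs. Among 9820 genes the median r was -0.01 and the 95th percentile 0.45, so CIITA and MAMU-DOB lie in the bulk and the classical genes above it.

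The genes most like MAMU-DRA on that scale were NCKAP1L (r = 0.83), TNFAIP8L2 (0.82), FCGR3 (0.82), CD200R1 (0.81) and APBB1IP (0.81), followed by DOCK2, LCP1, SEMA4A, AOAH and ITGB2 (0.78 to 0.80), over 33 arrays. With array set alone removed they were TYMP (0.88), FCGR3 (0.87), CTSS (0.85), TNFAIP8L2 (0.84) and LCP1 (0.82), followed by NCKAP1L, DOK2, DOCK2, PYCARD and LST1 (0.80 to 0.82). FCGR3 is a receptor for antibody Fc, and NCKAP1L and LCP1 encode regulators of actin in blood cells. The mean of the leukocyte list had r = 0.80 (Spearman's rho 0.74), that of the macrophage list 0.70 (0.68), that of the class I list 0.66 (0.55), that of the endothelial list 0.48 (0.49) and that of the luteal list 0.09 (-0.03). For 4 T cell genes it was 0.70 (0.65) and for 5 B cell genes 0.29 (0.33). Leaving out the 2 arrays farthest from the median gave 0.75, 0.69, 0.55, 0.50, -0.08, 0.64 and 0.24.

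**Figure D5:**
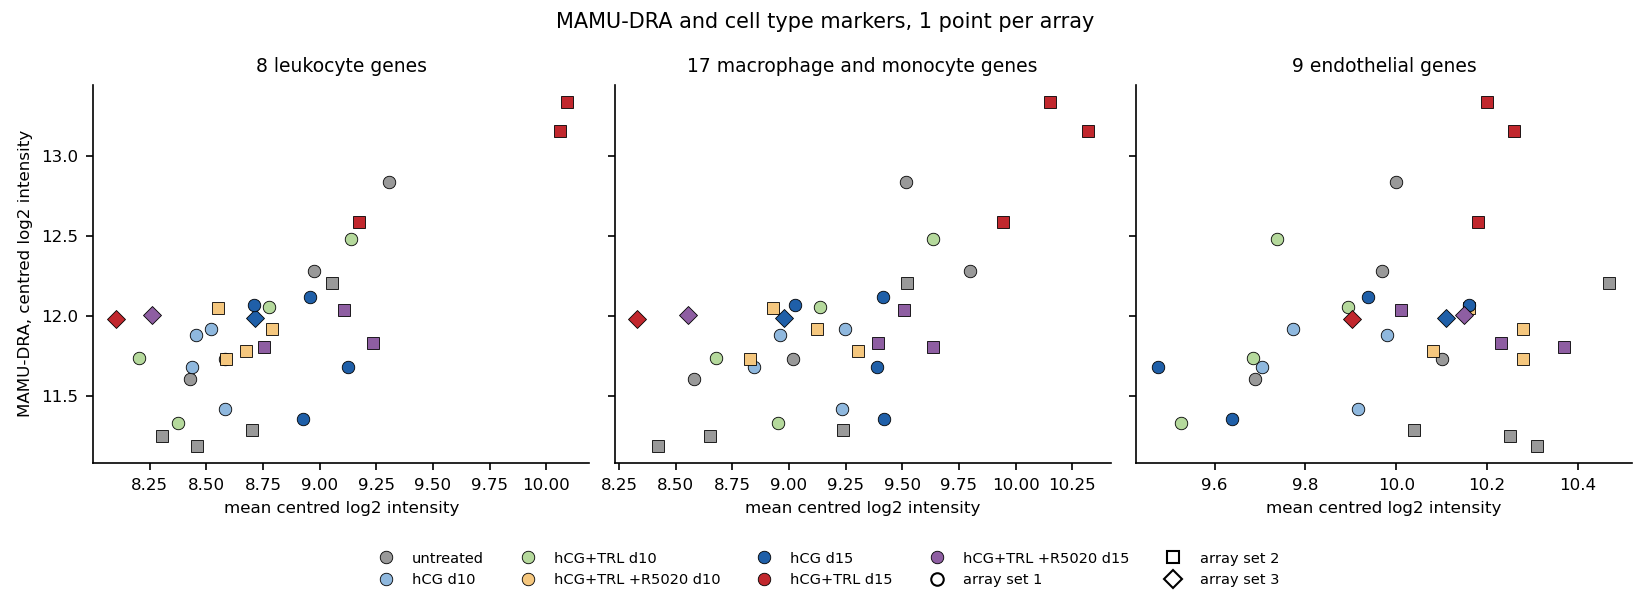
MAMU-DRA (y axis) against the mean of 8 leukocyte, 17 macrophage and monocyte, and 9 endothelial genes (x axes), centred log2 intensity, 1 point per array, coloured by group and shaped by array set. Replicates 1 and 3 of trilostane day 15 (red squares, MAMU-DRA 13.16 and 13.34) lie at the upper right of the leukocyte and macrophage panels, and replicate 4 (red diamond, 11.98) lies at their left edge.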

How the data were processed

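The authors deposited 1 table of log2 intensities per probe set for 33 arrays (range 2.6 to 15.12). The labels give TRIzol extraction and biotin labelling, while their background correction, summarization and normalization are not given in sources used here. Array medians differed by 0.183, so arrays were centred on their medians. The filter kept probe sets that exceeded 6.18 (the median over the whole table) on 4 or more arrays (28921, controls excluded). Symbols come from the platform annotation and RefSeq gene tables. All 9 member symbols matched RefSeq. Of several probe sets of a list gene, the one with the highest mean was used. Group and array set were fixed terms in 1 limma fit (limma 3.58.1, R 4.3.3, lmFit and eBayes with trend; the residual degrees of freedom were 24 and the median residual SD 0.211), with Benjamini-Hochberg adjustment within each of 16 comparisons over all kept probe sets. Scripts were tested on simulated data. Alternatives changed scaling, filter, array set, arrays and block.

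The members and lists were chosen with earlier results of these data known. All members are reported. From each list the text names up to 3 passing genes with the smallest adjusted p, and RFX5, IFNG, IRF1, CTSS, IFI30, CD68, CD163, PTPRC, CD3E, MS4A1, PECAM1 and STAR where measured. One further gene of that rule is not reported here. IRF8, CD86, CD40, B2M, MAMU-A, CD79A, CD4, missing or filtered markers and the genes between the class II genes were named after their values were seen. The labels do not say whether each array is a separate animal, so the spread behind each p-value is that of these arrays and may be technical. The number of arrays, not a depth, limits the precision. No genome or sequence was used here.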

Additional observations from a re-analysis of the deposited data

Results flagged for a closer look

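Among 98 sets of at least 4 arrays (each of 14 class II probe sets in each group, adjusted for array set), 2 had 1 array far from the others, and chance alone gives about 1 in 20. MAMU-DOA, the alpha chain of DO, was at 7.61 in hCG day 10 replicate 3, while the other 3 arrays of that group lay between 7.26 and 7.30. MAMU-DQA1, the alpha chain of DQ, was at 10.37 in R5020 day 10 replicate 1, while the other 3 lay between 9.70 and 9.80. The cause of neither was tested.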

How the results depend on the processing

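Of the 16 comparisons, 15 had 0 class II calls under each alternative that could be fitted (limma). In trilostane day 15 against untreated tissue the count of 9 became 7 to 11 under scaling, filter, array set and duplicate alternatives. With 1 array left out it ran from 4 (without trilostane day 15 replicate 1) to 11 (without replicate 4). Over all probe sets the calls were 2546 in the main fit, 1357 to 2674 under those alternatives and 1478 to 2563 with 1 array left out. With the replicate number as a block the class II count was 0, and all probe sets gave 37 calls. Untreated replicates 6 to 9 then each have a term of their own, so set 2 has no untreated array left in that comparison. Whether the numbers pair the samples was not settled. Titles of some trilostane and R5020 arrays of day 15 carry other numbers than the replicate numbers used, and pairing by title was not checked. In 0 of 21 pairs of groups did every pair of same-numbered arrays correlate above 0.1. That rule cannot decide it. Same-numbered arrays of untreated tissue and hCG day 15 correlated at 0.0187 to 0.422 (mean 0.233, other pairs -0.0251). For trilostane day 15 and R5020 day 15 the highest was 0.153, although their replicate 4 arrays are near-identical. The block changed the sign of MAMU-DRA (-0.189, -0.0957 and -0.0441), MAMU-DQB1 (-0.77 and -0.72) and MAMU-DOA (-0.0239) there, and in trilostane against hCG at day 15 those of MAMU-DQB1 (-0.27 and -0.25), MAMU-DOA (-0.000707) and CIITA (0.11). The block also moved class II medians: R5020 day 10 to -0.85 against untreated, -0.72 against hCG and -0.73 against trilostane; R5020 day 15 to -0.66 against untreated and -0.54 against hCG; trilostane day 15 to 0.16 against untreated and 0.28 against hCG; and the differences between days to 0.15 (trilostane) and -0.07 (R5020).

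Fitting only the groups compared turned the sign in trilostane against hCG at day 15 for MAMU-DRA (-0.13 and -0.00556), MAMU-DMA (-0.0483 and -0.131), MAMU-DQB1 (-0.45 and -0.36), MAMU-DOA (-0.18) and CIITA (0.0292). CIITA, near 0, also changed sign there without centring (0.0275), with quantile normalization (0.00534) and with arrays left out (range -0.0366 to 0.0146), and against untreated tissue without the array set term, without both replicate 4 arrays, within set 2, with only the groups compared or with hCG day 15 replicate 3 left out (-0.00478, -0.00487 or -0.00436) and with arrays left out (-0.0313 to 0.0276). MAMU-DOB in trilostane against hCG at day 15 was at -0.0387 without both replicate 4 arrays, at -0.138 and -0.036 without hCG day 15 replicate 3 or 5, and from -0.218 to 0.585 with arrays left out. Not run, because an estimate could not be had, were fits within 1 array set for trilostane against hCG at day 15, R5020 against hCG at both days, R5020 against trilostane at day 10 and both differences between days, and fits of only the groups compared for R5020 against trilostane or hCG at day 10 and for the R5020 difference between days. Alternatives for list genes were chosen after seeing the data. Signals near the array median limit what CIITA, MAMU-DOA and MAMU-DOB can show.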
